A study of Mus musculus and Homo sapiens with 34 samples.

Results

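The 43 genes described here encode the acid hydrolases, membrane proteins and proton pump of the lysosome, the transcription factors that act on such genes, and proteins of autophagy. They were chosen by name, with earlier results of these data known. Rows with these names (upper case in the human tables) were read in all 7 deposited count tables. Of the 43 genes, 9 encode proteases, 9 encode glycosidases and glycan-degrading enzymes, 4 handle lipids, 6 encode lysosomal membrane proteins, a channel or progranulin, 2 encode subunits of the proton pump, 10 act in autophagy and 3 are transcription factors (Tfeb, Tfe3 and Mitf). The tables listed 41 to 43 of these genes among 16553 to 26245 genes in all. Ctss was not among the listed genes of the 2-week 3154, 3311 and 1027B tables, and Mitf was not among those of the 1027B and 48-h 3154 tables. After the filter on low counts, 41 to 43 members were tested in each table; Mitf in the 2-week 3154 table, Ctsf in the 48-h 3154 table and MAP1LC3A in the H358 table were listed but too low to test.

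RNA was sequenced from 34 libraries, in 17 groups of 2, made from mouse lung tumour cultures and human lung adenocarcinoma (LUAD) cell lines. Mouse 3154 organoids carried alleles that include p53frt, Rosa-FSF-CreERT2 and Hnf4aflox, so that 4-hydroxytamoxifen (4OHT) activates Cre and deletes Hnf4a, a transcription factor of liver and gut epithelium; ethanol (EtOH) was the control. One 3154 experiment gave 4OHT (2 mM in the labels) or EtOH for 2 days and took RNA 2 weeks later. Another used 4OHT or EtOH organoids and gave 3 nM MRTX1133, a small-molecule inhibitor, or vehicle for 48 h. The labels do not give the 4OHT dose of that experiment and do not settle the time since 4OHT. In what follows, 48 h therefore names this experiment and is not a known time since 4OHT. Mouse 1027B organoids and the mouse 3311 cell line carried alleles that include p53frt, Rosa-FSF-CreERT2, Foxa1flox and Foxa2flox, with no treatment that deletes Foxa1 or Foxa2 named for the libraries used here. The 1027B organoids received 10 nM trametinib, an inhibitor of the kinase MEK, or 20 nM MRTX1133 or vehicle for 48 h, and the 3311 cells 50 nM trametinib or vehicle for 48 h. The human lines H358 and H1651 received 20 nM trametinib or vehicle for 48 h, with no genotype in their labels. H1651 cells with a lentiviral HNF4α construct received 1 µg/mL doxycycline or no doxycycline for 7 days. Each culture is 1 line; nothing says that the 2 libraries of a group came from separate cultures, so the p-values measure the spread between these libraries, which may be technical. Changes are in bulk RNA, where fewer cells of a type and less RNA per cell cannot be told apart.

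The lysosome is the acidic compartment in which proteins, glycans and lipids are broken down, and autophagy delivers parts of the cell's own cytoplasm to it. Its acidity is kept by the vacuolar proton pump (V-ATPase). TFEB, TFE3 and MITF are related transcription factors that bind short palindromes of the E-box type, called CLEAR elements, near the start of many lysosomal genes. Their activity is controlled to a large degree by phosphorylation and movement between cytoplasm and nucleus, with mTORC1 and ERK among the kinases known to act on TFEB, so their mRNA level is not a measure of their activity.

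The palindrome TCACGTGA, the core of the CLEAR element, was searched in RefSeq promoter windows (mouse GRCm38.p6, 250 bases before to 50 bases after each gene's start), where 38 of the 43 members matched an entry. It was present in 6 of those 38 members (15.8%), namely Atp6v0d1, Cln3, Ctsa, Ctsd, Gla and Mcoln1, against 1.13% of 27025 genes. The shorter E-box core CACGTG, which lies inside TCACGTGA, was present in 13 of the 38 members (34.2%) against 8.09% of all genes. Both letter strings read the same on both strands. A match describes letters in a window and is no evidence of binding. The stretches of 4 members are shown, and those of Atp6v0d1 and Mcoln1 are not. Cln3 and Ctsa are among the genes that rose with trametinib in 3 cultures. Ctsd fell with deletion of Hnf4a in vehicle at 48 h, and Gla fell with trametinib in both 3311 and H358. The stretches were not chosen by these responses. Capitals mark TCACGTGA, and the sequences are written 5′ to 3′ on the gene's strand.
Cln3, minus strand, chr7:126583326-126583383: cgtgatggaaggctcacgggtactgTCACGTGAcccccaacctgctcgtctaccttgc
Ctsa, plus strand, chr2:164833735-164833772: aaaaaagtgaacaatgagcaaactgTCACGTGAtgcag
Ctsd, minus strand, chr7:142387894-142387951: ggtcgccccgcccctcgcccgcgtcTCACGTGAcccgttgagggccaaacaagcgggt
Gla, minus strand, chrX:134601168-134601255: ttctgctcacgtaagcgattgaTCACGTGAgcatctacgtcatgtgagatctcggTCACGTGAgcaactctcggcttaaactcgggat
Counted from the gene's start, the palindrome began at base -122 in Cln3 and -99 in Ctsd, at bases -228 and -195 in Gla, and at bases -13 and 5 in Ctsa, whose printed stretch ends before the start and so shows only the first. In the mouse cultures, of the 6 members with the palindrome, Cln3, Ctsa and Atp6v0d1 rose with trametinib in 3311 and Gla fell, while Cln3 and Ctsa rose in 1027B; the others were not called. Human promoters were not searched.

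Total counts ran from 19692517 to 45284286 per library, and expression is given as CPM, a gene's share of its library's counts after TMM scaling, with the values of replicates 1 and 2 in that order. Fold changes are on the log2 scale, each ± its standard error (SE), from edgeR's quasi-likelihood F-test, with p-values adjusted by Benjamini-Hochberg over all genes of the fit; a gene is called, and is said to have risen or fallen, at an adjusted p under 0.05. The targeted gene bore out the labels: Hnf4a stood at 315 and 427 CPM with EtOH and 53.5 and 68.0 CPM with 4OHT at 2 weeks (log2 fold change -2.61), fell by 2.18 on the log2 scale with 4OHT at 48 h, and HNF4A rose from 47.1 and 35.9 to 94.4 and 96.8 CPM with doxycycline. Dusp6, an ERK target gene that encodes an ERK phosphatase, had log2 fold changes of -1.87 in 3311 and -2.80 in 1027B with trametinib and -1.20 in 1027B with MRTX1133, and DUSP6 had one of -7.59 in H358, all called. In H1651, DUSP6 was 49.8 and 51.8 CPM in vehicle and 5.27 and 7.46 CPM with trametinib, a log2 fold change of -3.00 that missed the threshold (adjusted p = 0.149). The 6 epithelial markers summed to 3705 to 11110 CPM in every library, and some moved with trametinib: in H358 EPCAM, KRT8 and KRT18 fell and CDH1 rose (sums of 5650 and 5458 CPM in vehicle and 3705 and 4009 CPM with trametinib), in 1027B Krt19 and Cldn7 fell and Cdh1 rose, and in 3311 Krt18 fell; their part in the members' changes was not tested. Of 10 macrophage markers, 4 to 6 were listed in the mouse tables, and Mrc1 and Cd14 were the highest of them in vehicle or EtOH.

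Across the 11 comparisons of a treatment with its control, the members rose in number with MEK inhibition in 3 of 4 cultures. With deletion of Hnf4a in vehicle at 48 h they moved in both directions. They had 1 or 0 calls with doxycycline, with trametinib in H1651, and with MRTX1133 in 1027B and in 3154 organoids with intact Hnf4a. The shares of all genes called there were 1.42%, 0%, 6.27% and 0.349%, in that order. The heat map and the plot of members beside all genes show every tested member.

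**Figure D1:**
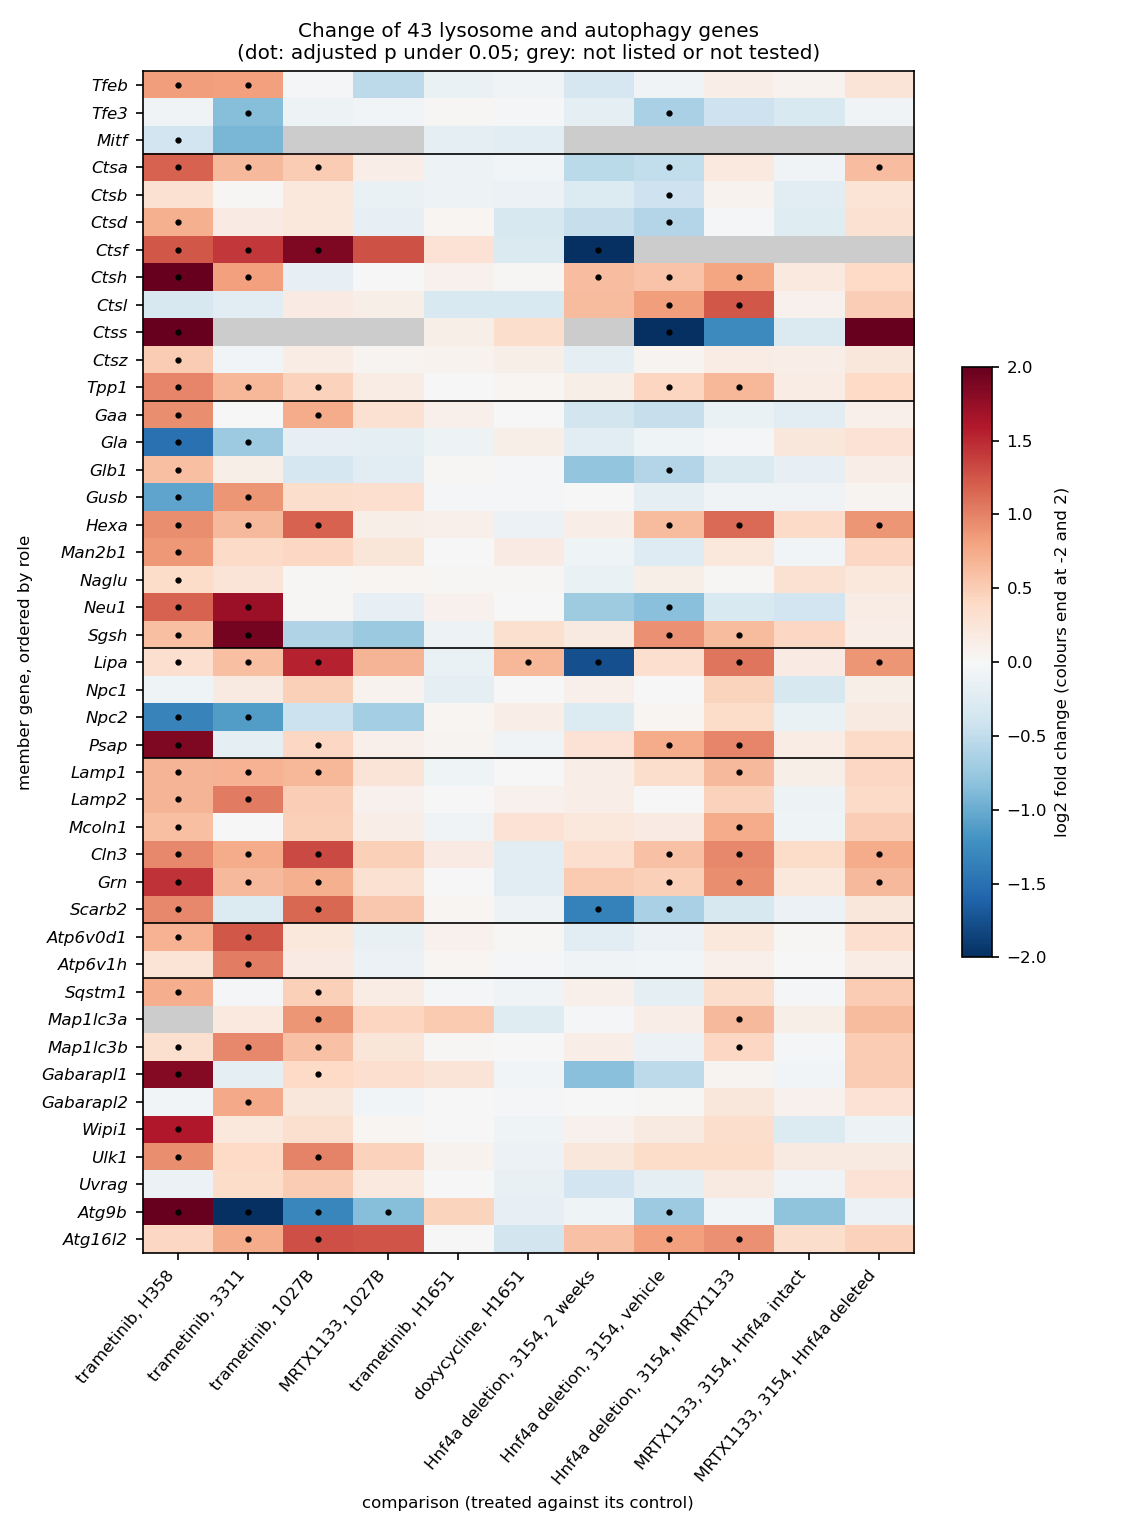
Rows are the 43 genes grouped by role (lines separate roles), columns are the 11 comparisons, and colour is the log2 fold change of treated against control, with colours ending at -2 and 2. Dots mark genes with an adjusted p under 0.05; the trametinib columns of H358, 3311 and 1027B hold 34, 23 and 18 dots, and that of H1651 holds 0.

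**Figure D2:**
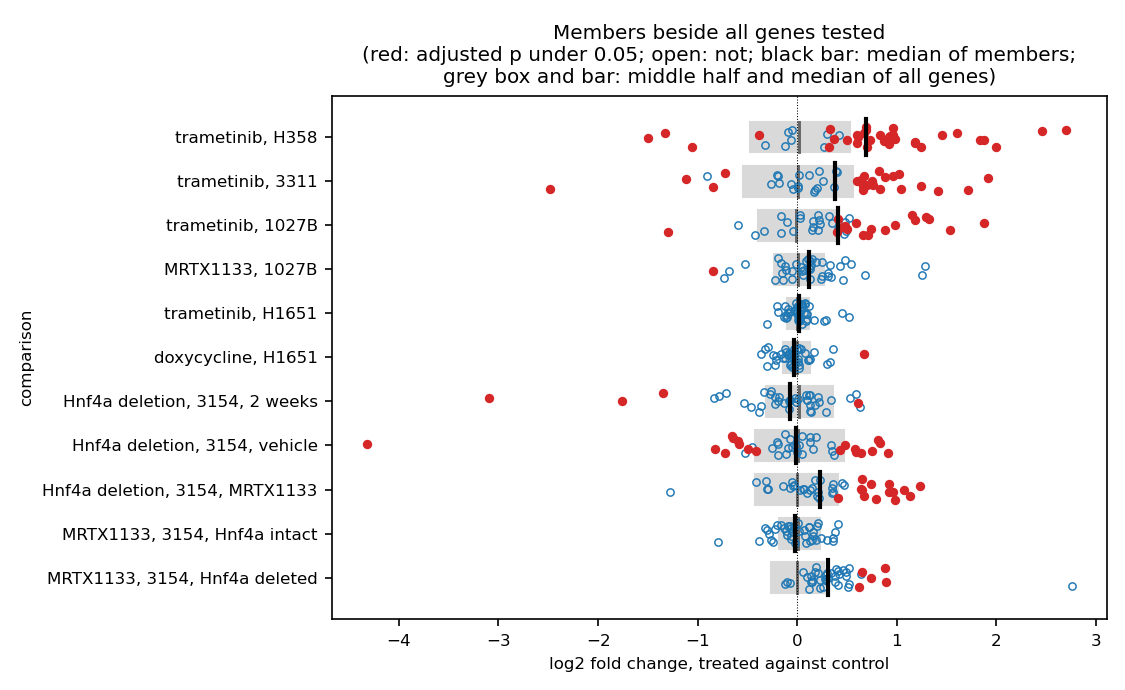
Each point is 1 member's log2 fold change in 1 comparison (red for adjusted p under 0.05), the black bar is the members' median, and the grey box and bar are the interquartile range and the median of all genes tested. The members' median lies to the right of the median of all genes for trametinib in H358 (0.69), 1027B (0.41) and 3311 (0.38), and near it for trametinib in H1651 (0.02).

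Trametinib in the mouse 3311 line raised 19 of the 42 tested members and lowered 4, which is 54.8% of the members; of all 15224 genes tested, 39% were called in either direction. The members' median log2 fold change was 0.38 and that of all genes 0.01. The sialidase gene Neu1, the heparan sulfate sulfatase gene Sgsh and the protease gene Ctsf rose most. Npc2 and Gla, which act in cholesterol export and in the breakdown of galactolipids, and the transcription factor gene Tfe3 fell, as did Atg9b.

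Among glycosidase and glycan genes in 3311, 4 of 9 rose and 1 fell. Neu1 stood at 298 and 269.6 CPM in vehicle and 922 and 939 CPM with trametinib, a log2 fold change of 1.71 ± 0.15 (adjusted p = 6.68e-04). Sgsh went from 5.20 and 10.3 to 29.4 and 29.0 CPM (1.92 ± 0.31; adjusted p = 0.00444). Gusb, the β-glucuronidase gene, rose by 0.88 ± 0.22, a change that was 0.58 without vehicle replicate 1. For each of these 3 genes both trametinib libraries were above both vehicle libraries. Gla fell from 22.7 and 22.9 to 11.9 and 15.8 CPM (log2 fold change -0.72 ± 0.20; adjusted p = 0.0289), and Gaa, the acid α-glucosidase gene, was at 420.4 and 402 CPM in vehicle and 417 and 407 CPM with trametinib, with overlapping libraries.

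Of the 8 protease genes tested in 3311, 4 rose and none fell. Ctsf, a cysteine cathepsin, was at 7.62 and 10.8 CPM in vehicle and 24.1 and 24.8 CPM with trametinib (1.41 ± 0.22; adjusted p = 0.00408). Ctsh, an aminopeptidase of the same family with roles in surfactant processing in lung, went from 342 and 319 to 634 and 533 CPM (0.82 ± 0.16). Tpp1, a tripeptidyl peptidase, and Ctsa, the carboxypeptidase that protects the sialidase, rose by 0.67 ± 0.13 and 0.66 ± 0.14. The other cathepsins tested were not called: Ctsb was at 457 and 391 CPM in vehicle and 394 and 466 CPM with trametinib, with overlapping libraries, and Ctsd, Ctsl and Ctsz had log2 fold changes of 0.16, -0.20 and -0.06.

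Both pump genes rose in 3311. Atp6v0d1, a subunit of the membrane part, went from 34.6 and 44.7 to 107 and 81.1 CPM (1.25 ± 0.19; adjusted p = 0.0038), and Atp6v1h, of the cytosolic part, from 50.5 and 50.6 to 108 and 97.3 CPM (1.02 ± 0.13). Of the 6 membrane, channel and progranulin genes, 4 rose: Lamp2 by 1.04 ± 0.13, Cln3 by 0.75 ± 0.14, Lamp1 by 0.70 ± 0.15 and Grn, the progranulin gene, by 0.66 ± 0.15. LAMP1 and LAMP2 are the main glycoproteins of the lysosomal membrane. The lipid genes parted: Lipa, the acid lipase gene, rose by 0.60 ± 0.14, while Npc2 fell from 876 and 747 to 329.8 and 420.4 CPM (-1.11 ± 0.18; adjusted p = 0.00465).

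Of the 10 autophagy genes in 3311, Map1lc3b, Gabarapl2 and Atg16l2 rose and Atg9b fell. Map1lc3b encodes LC3B, the ubiquitin-like protein that marks autophagosomes, and went from 177 and 158 to 357 and 296 CPM (0.96 ± 0.16; adjusted p = 0.0043). Atg9b, a membrane protein of early autophagosomes, went from 10.00 and 15.5 to 1.51 and 3.04 CPM (-2.49 ± 0.40; adjusted p = 0.0043). The Sqstm1 gene, whose product p62 carries cargo into autophagosomes, was at 644 and 675 CPM in vehicle and 653 and 627 CPM with trametinib and was not called. Of the 3 transcription factor genes, Tfeb rose from 16.9 and 16.7 to 28.5 and 31.1 CPM (0.83 ± 0.16; adjusted p = 0.00862). Tfe3 fell from 60.8 and 47.2 to 28.9 and 31.1 CPM (-0.85 ± 0.17; adjusted p = 0.00864). Mitf, low at 4.27 and 3.98 CPM in vehicle, was 2.29 and 2.09 CPM with trametinib and just missed the threshold (adjusted p = 0.0543). In the same libraries the 5 listed macrophage markers summed to 144 and 237 CPM in vehicle and 50.3 and 81.4 CPM with trametinib, with Ptprc at 0 in every library. They went both ways: Mrc1 and Cd14 fell (-2.24 and -1.94) and Csf1r rose (1.55), and their part in these results was not tested.

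In 1027B organoids, 10 nM trametinib raised 17 of 41 members and lowered 1 (43.9% of members, against 26.7% of 14555 genes). The members' median was 0.41 and that of all genes -0.01. With the replicate number as a block, since deviations of same-numbered 1027B libraries went together, 30 of 41 members were called, 27 higher and 3 lower (73.2%), against 44.9% of all genes. The acid lipase gene Lipa, the Batten disease gene Cln3, Ctsf, Atg16l2, Hexa and Scarb2 rose by more than 1 on the log2 scale, and Atg9b fell. Leaving out trametinib replicate 1 left 7 members called, and leaving out either vehicle library left 11.

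Of the 6 membrane, channel and progranulin genes in 1027B, 4 rose, and Lamp2 and Mcoln1, not called, had log2 fold changes of 0.49 and 0.48. Cln3 went from 18.8 and 15.5 to 49.0 and 36.5 CPM (1.32 ± 0.19; adjusted p = 0.00451). Scarb2, whose product LIMP-2 carries glucocerebrosidase to lysosomes, went from 44.5 and 53.4 to 116 and 101 CPM (1.15 ± 0.13; adjusted p = 0.00204). Lamp1 went from 640.3 and 627 to 1027 and 974 CPM (0.66 ± 0.11), and Grn rose by 0.71 ± 0.14. In none of these 4 genes did a trametinib library fall to the level of a vehicle library.

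Lipa in 1027B went from 54.4 and 90.1 to 236 and 183 CPM (1.54 ± 0.24; adjusted p = 0.00587), and Psap, the precursor of the saposins that assist sphingolipid hydrolases, from 482 and 496 to 651 and 651 CPM (0.41 ± 0.10; adjusted p = 0.0234). Of 8 protease genes 3 rose: Ctsf, low at 1.50 and 2.65 CPM in vehicle, reached 9.22 and 5.92 CPM (1.87 ± 0.36), and Ctsa and Tpp1 rose by 0.50 ± 0.13 and 0.46 ± 0.12. Among the 9 glycosidase and glycan genes only Hexa and Gaa were called. Hexa, of β-hexosaminidase, went from 4.31 and 5.25 to 11.7 and 9.98 CPM (1.18 ± 0.23; adjusted p = 0.0118) and Gaa from 73.1 and 93.1 to 139 and 138 CPM (0.74 ± 0.13). Neu1, which rose 3.28-fold in 3311, was at 86.7 and 87.4 CPM in vehicle and 97.1 and 80.5 CPM with trametinib in 1027B (0.03 ± 0.14); the difference between the 2 cultures, whose trametinib doses differ, was not tested. The pump genes Atp6v0d1 and Atp6v1h were not called (0.21 and 0.16).

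Of the 10 autophagy genes in 1027B, 6 rose and 1 fell. Atg16l2, a homologue of an LC3 conjugation factor, went from 1.94 and 1.79 to 5.25 and 3.87 CPM (1.29 ± 0.32), and Ulk1, the kinase that starts autophagosome formation, from 41.4 and 39.2 to 90.6 and 68.9 CPM (0.98 ± 0.17; adjusted p = 0.00814). Map1lc3a went from 48.7 and 47.7 to 90.9 and 86.2 CPM (0.88 ± 0.11; adjusted p = 0.00331). Map1lc3b, Sqstm1 and Gabarapl1 rose by smaller amounts (0.59, 0.48 and 0.40). Atg9b fell from 127 and 145 to 63.0 and 47.5 CPM (-1.30 ± 0.18; adjusted p = 0.00432). Tfeb was at 11.7 and 10.7 CPM in vehicle and 10.7 and 11.0 CPM with trametinib (-0.05 ± 0.19), and Tfe3 at 43.1 and 48.4 CPM in vehicle and 39.4 and 45.6 CPM with trametinib (-0.11 ± 0.13). Neither was called, and the libraries of both genes overlapped between the groups. The 4 listed macrophage markers summed to 152 and 183 CPM in vehicle and 69.8 and 61.0 CPM with trametinib. They went both ways as well: Mrc1 and Ptprc fell (-3.72 and -2.78) and Csf1r, low in vehicle, rose (2.58), and their part in these results was not tested.

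MRTX1133 at 20 nM lowered Atg9b, from 127 and 145 to 85.6 and 65.7 CPM (-0.85 ± 0.18; adjusted p = 0.0447), and called no other member of 41 in 1027B (6.27% of all genes were called). The members' median log2 fold change was 0.11, and 12 of 41 members had an unadjusted p under 0.05, as had 23.2% of all genes. In the blocked fit 14 of 41 members were called, 11 higher and 3 lower (34.1%, against 24.1% of all genes), and DESeq2 called 6 (11.2% of all genes). The leading values were those of genes that rose with trametinib: Ctsf was at 4.87 and 5.18 CPM (1.28 ± 0.36; adjusted p = 0.0908) and Atg16l2 at 5.31 and 3.54 CPM (1.25 ± 0.32; adjusted p = 0.0746). Lipa, at 114 and 118 CPM, and Scarb2, at 70.5 and 72.1 CPM, lay above both vehicle libraries and below both trametinib libraries. The call of Atg9b was lost without vehicle replicate 1 or either MRTX1133 library. The 4 listed macrophage markers summed to 107 and 88.5 CPM with MRTX1133, between their sums in vehicle and with trametinib. Tfeb was at 6.87 and 8.72 CPM (-0.53 ± 0.19; adjusted p = 0.157) and Tfe3 at 46.2 and 41.8 CPM (-0.06 ± 0.13).

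Set directly against trametinib in 1027B, MRTX1133 gave lower values for 36 of 41 members, with a median difference of -0.32, but no member was called in edgeR's fit (0% of all genes were called). In that comparison 20 members and 16.2% of all genes had an unadjusted p under 0.05, DESeq2 called 9 members, all lower, and 5.66% of all genes, and the blocked fit called 18, all lower (43.9%, against 14.1% of all genes). The 2 comparisons with vehicle share the vehicle libraries. Hexa had the lowest value, at 11.7 and 9.98 CPM with trametinib and 4.61 and 5.83 CPM with MRTX1133 (log2 difference -1.06 ± 0.23; adjusted p = 0.126), followed by Lipa (-0.85 ± 0.24) and Cln3 (-0.84 ± 0.19). The compounds and their doses both differ. In the same libraries the 10 ERK target genes were all higher with MRTX1133 than with trametinib, by a median of 1.01, and none was called.

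In H358 cells, trametinib raised 30 of the 42 tested members and lowered 4, or 81% of members, against 46.8% of 18972 genes. The members' median log2 fold change was 0.69 and that of all genes 0.02. ATG9B, the cathepsin genes CTSS and CTSH, the saposin precursor gene PSAP and the autophagy genes GABARAPL1 and WIPI1 rose most. GLA, NPC2, GUSB and MITF fell.

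All 6 membrane, channel and progranulin genes rose in H358. GRN went from 117 and 108 to 335 and 281 CPM (1.45 ± 0.12; adjusted p = 6.74e-05), and SCARB2 from 259 and 243 to 509.9 and 466 CPM (0.96 ± 0.10; adjusted p = 2.31e-04). CLN3 was low, at 0.984 and 0.657 CPM in vehicle and 1.72 and 1.49 CPM with trametinib (0.97 ± 0.32; adjusted p = 0.0357), and lost its call with DESeq2. LAMP1, LAMP2 and the calcium channel gene MCOLN1 rose by 0.67, 0.69 and 0.60.

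Of 9 protease genes in H358, 7 rose. CTSS, a cathepsin of antigen-presenting cells and some epithelia, went from 17.4 and 13.5 to 90.9 and 78.8 CPM (2.45 ± 0.15; adjusted p = 2.14e-05). CTSH went from 13.8 and 14.8 to 61.4 and 52.8 CPM (2.00 ± 0.13; adjusted p = 2.56e-05), and CTSF from 10.8 and 9.67 to 26.0 and 22.4 CPM (1.24 ± 0.15). CTSA, TPP1, CTSD and CTSZ rose by 1.19, 0.98, 0.70 and 0.50, while CTSB (0.30) and CTSL (-0.32) were not called. Each of the 7 called protease genes had both trametinib libraries above both vehicle libraries.

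Glycan genes divided in H358, with 7 of 9 higher and 2 lower. NEU1 went from 53.7 and 46.8 to 121 and 107 CPM (1.18 ± 0.12; adjusted p = 1.72e-04), GAA from 126 and 115 to 237 and 219.6 CPM (0.92 ± 0.11), and HEXA from 84.2 and 71.8 to 160.4 and 135 CPM (0.92 ± 0.13). In the other direction, GLA went from 26.2 and 29.6 to 7.95 and 12.0 CPM (-1.50 ± 0.20; adjusted p = 6.03e-04) and GUSB from 59.8 and 58.8 to 29.3 and 27.5 CPM (-1.06 ± 0.11; adjusted p = 1.98e-04). GUSB thus fell in H358, whereas Gusb rose in 3311.

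Of the lipid genes in H358, 2 of 4 rose and 1 fell. PSAP went from 468 and 494 to 1789 and 1729 CPM (1.87 ± 0.10; adjusted p = 1.28e-05). NPC2 went the other way, from 338 and 287 to 130.2 and 119 CPM (-1.33 ± 0.12; adjusted p = 9.24e-05), and its partner in cholesterol export, NPC1, was not called (-0.09 ± 0.16). LIPA rose by 0.33, and the call was lost with DESeq2. Of the pump genes, ATP6V0D1 rose by 0.69 and ATP6V1H was not called (0.27).

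Of 9 autophagy genes tested in H358, 6 rose. GABARAPL1, an LC3 relative, went from 12.7 and 11.0 to 42.6 and 42.0 CPM (1.83 ± 0.13; adjusted p = 3.94e-05). WIPI1, which reads phosphoinositides on forming autophagosomes, went from 15.4 and 9.97 to 40.3 and 37.1 CPM (1.61 ± 0.20). ATG9B, low in vehicle at 4.58 and 1.79 CPM, reached 28.6 and 13.0 CPM (2.70 ± 0.46; adjusted p = 0.00201), opposite to its fall in 3311 and 1027B. ULK1 rose by 0.94, or 0.61 without trametinib replicate 1. TFEB rose from 5.44 and 4.12 to 8.77 and 8.24 CPM (0.83 ± 0.20; adjusted p = 0.0104), TFE3 was at 57.1 and 56.6 CPM in vehicle and 54.5 and 54.2 CPM with trametinib without a call, and MITF fell from 15.5 and 16.2 to 12.2 and 12.1 CPM (-0.38 ± 0.14; adjusted p = 0.049), a call lost with DESeq2. In the same libraries the 7 fibroblast markers summed to 50.0 and 41.2 CPM in vehicle and 349 and 246 CPM with trametinib, led by LUM at 12.3 and 7.76 CPM in vehicle and 200 and 127 CPM with trametinib, with COL1A2 and DCN at 0 in both vehicle libraries. The 4 endothelial markers summed to 12.1 and 14.4 CPM in vehicle and 21.1 and 21.2 CPM with trametinib, with CDH5 called higher. The part of such shifts in the members' changes was not tested. The 5 listed macrophage markers summed to 1.37 to 1.92 CPM over the H358 libraries, each under 1 CPM in every library.

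With trametinib, 9 of the 40 members tested in 3311, 1027B and H358 rose in all 3, against 3.45% of the 9990 genes tested in these cultures and matched by symbol: Cln3, Ctsa, Ctsf, Grn, Hexa, Lamp1, Lipa, Map1lc3b and Tpp1. These are 9 of 19 risen members in 3311, 9 of 17 in 1027B and 9 of 30 in H358. With DESeq2, 6 of the 9 kept all 3 calls (Cln3, Lipa and Map1lc3b did not), and with 1 library left out 3 to 9 did, the fewest without trametinib replicate 1 of 1027B; each of the 9 lost a call in at least 1 of the latter fits. The 9 genes hold members of the membrane, protease, glycan, lipid and autophagy groups, and none of the transcription factor or pump genes. No member fell in all 3 cultures. Gla and Npc2 fell in both 3311 and H358, and in 1027B both were lower without a call (-0.17 ± 0.16 and -0.42 ± 0.15).

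**Figure D3:**
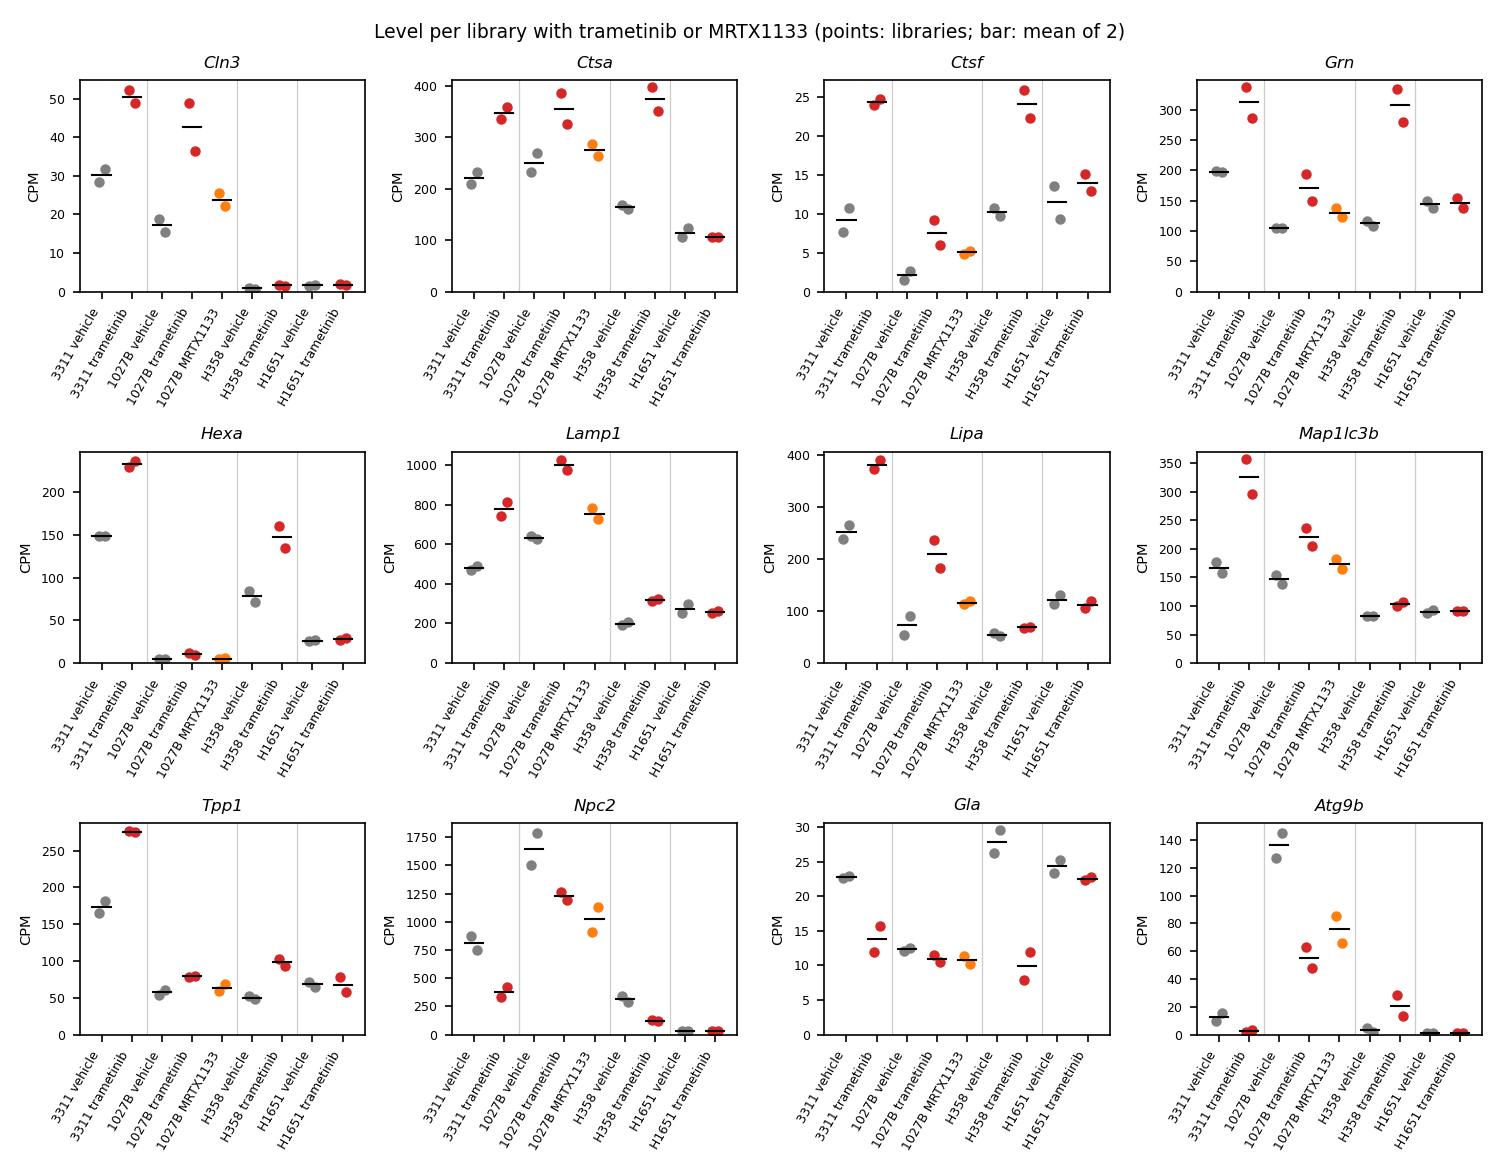
Points are the CPM of single libraries (linear axis from 0) and bars the mean of 2, for the 9 members that rose with trametinib in 3311, 1027B and H358 and for Npc2, Gla and Atg9b; grey is vehicle, red trametinib and orange MRTX1133. In H1651 the red points sit at the height of the grey ones, and Npc2 is lower with trametinib in H358 (130 and 119 CPM against 338 and 287 CPM).

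In H1651, trametinib at the same dose and time called 0 of 43 members, and of all 18277 genes 0% were called in edgeR's fit. With the replicate number as a block, 5 members were called, 2 higher and 3 lower (11.6%, against 10.3% of all genes). What same-numbered libraries share is not known. The members' median log2 fold change was 0.02, with values between -0.31 (CTSL) and 0.52 (MAP1LC3A); 1 member, GABARAPL1, had an unadjusted p under 0.05, as had 3.27% of all genes, and DESeq2 called 0. PSAP was at 691 and 651 CPM in vehicle and 714 and 676 CPM with trametinib (0.05 ± 0.10). GRN was at 150.1 and 138 CPM in vehicle and 154 and 137 CPM with trametinib (0.01 ± 0.10), and CTSA at 105 and 123 CPM in vehicle and 106 and 107 CPM with trametinib (-0.10 ± 0.11). The groups overlapped in all 3 genes. TFEB (-0.13 ± 0.22, at 2.79 and 2.27 CPM in vehicle), TFE3 (0.03 ± 0.08, at 204 and 199 CPM) and MITF (-0.19 ± 0.11, at 52.7 and 58.0 CPM) were not called. These values do not show that the members did not change; the SE of most members was near 0.1. The 10 ERK target genes had a median of -1.83 in the same comparison, 9 of them with an unadjusted p under 0.05 and none called.

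The difference between the lines was tested in 1 fit over both tables, as the trametinib change in H1651 minus that in H358. It was called for 24 of 43 members, 21 lower in H1651 and 3 higher (55.8%, against 19.3% of 21188 genes). The median difference was -0.71. PSAP differed by -1.85 ± 0.14 (adjusted p = 2.79e-04), CTSH by -1.94 ± 0.19, GABARAPL1 by -1.60 ± 0.16, GRN by -1.46 ± 0.18 and CTSA by -1.32 ± 0.17. The 3 positive differences were those of GLA (1.37 ± 0.24), NPC2 (1.35 ± 0.16) and GUSB (1.00 ± 0.15), which are 3 of the 4 genes that fell in H358. Neither TFEB (-0.99 ± 0.31; adjusted p = 0.0549) nor TFE3 (0.07 ± 0.12) nor MITF (0.16 ± 0.16) was called. The ERK target genes also differed, with 6 of 10 called and less reduced in H1651, by a median of 2.83. The lines were grown in different media (RPMI for H358, Advanced DMEM/F-12 for H1651), which cannot be told apart from the line.

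**Figure D4:**
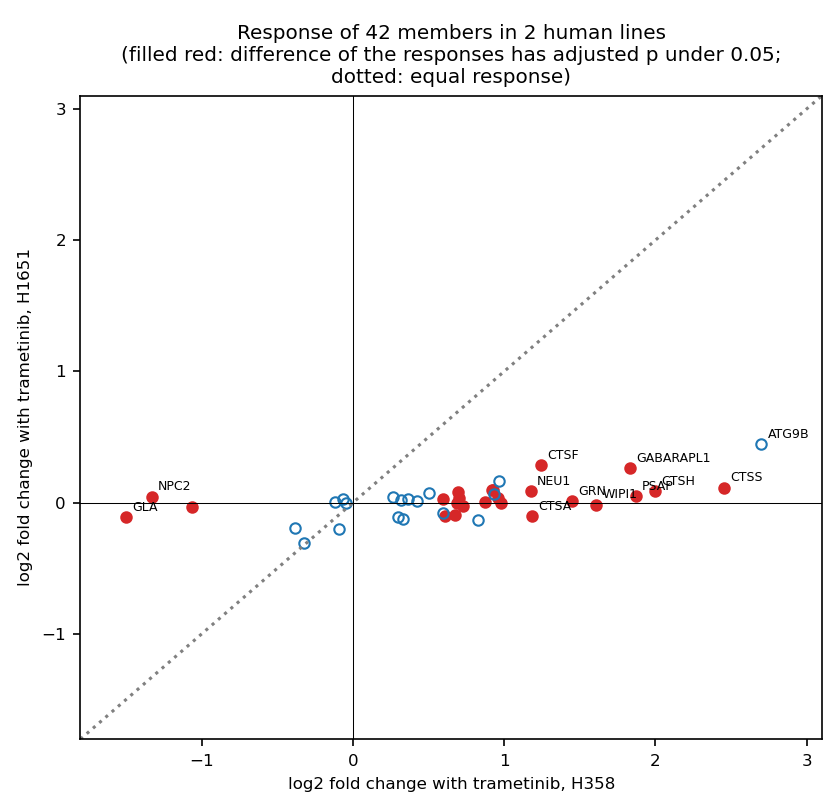
Each point is 1 of 42 members, placed by its log2 fold change with trametinib in H358 (horizontal) and in H1651 (vertical); the dotted line marks equal response and red points have a called difference. The points spread from -1.50 (GLA) to 2.70 (ATG9B) along the H358 axis and stay between -0.31 and 0.45 along the H1651 axis.

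Deletion of Hnf4a in 3154 organoids, 2 weeks after 4OHT, called 4 of 41 members, 1 higher and 3 lower (9.76%), a share near that of all genes (9.81% of 14492). The acid lipase gene Lipa, the receptor gene Scarb2 and Ctsf fell and Ctsh rose. Lipa went from 119 and 204 CPM with EtOH to 46.2 and 49.3 CPM with 4OHT (-1.76 ± 0.26; adjusted p = 0.0187). Scarb2 went from 187 and 197 to 83.8 and 66.9 CPM (-1.35 ± 0.15; adjusted p = 0.0118). In both genes the groups were well apart.

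Ctsh went from 547 and 556 to 795 and 893 CPM (0.61 ± 0.13; adjusted p = 0.0393). Ctsf was near the limit of detection, with 17 and 23 counts under EtOH and 2 and 3 counts under 4OHT, a ratio of 0.115 with an exact 95% counting interval of 0.0354 to 0.291; DESeq2 did not call it. It passed the count filter through its EtOH libraries, and with at least 10 counts required in every library 3 of 40 members were called. Glb1, the β-galactosidase gene, just missed the threshold, at 92.8 and 124 CPM with EtOH and 58.2 and 67.0 CPM with 4OHT (-0.79 ± 0.18; adjusted p = 0.0516). Tfeb was 15.2 and 19.0 CPM with EtOH and 13.8 and 13.5 CPM with 4OHT (-0.33 ± 0.19) and Tfe3 was 48.2 and 53.7 CPM with EtOH and 43.2 and 46.1 CPM with 4OHT (-0.19 ± 0.14), neither of them called. Mitf had 0 and 0 counts with EtOH and 0 and 8 with 4OHT. Leaving out either 4OHT library left 1 member called, and leaving out EtOH replicate 1 gave 9. The 6 listed macrophage markers summed to 148 and 280 CPM with EtOH and 107 and 137 CPM with 4OHT, with Ptprc under 1 CPM in every library. Csf1r fell (-2.58) and Cd14 rose (group means of 22.9 and 60.3 CPM), and their part in these results was not tested.

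At 48 h in vehicle, 4OHT called 18 of 41 members, 9 higher and 9 lower (43.9%, against 31% of 15458 genes). The members' median was -0.01 and that of all genes 0.01. Genes of the same role went both ways: Ctsl, Ctsh and Tpp1 rose while Ctsa, Ctsb and Ctsd fell, and Sgsh and Hexa rose while Neu1 and Glb1 fell. Without 4OHT replicate 1 or 2 only 5 or 4 members were called, without EtOH replicate 1 there were 12, and a fit of these 2 groups alone called 9 of 40, against 21.5% of all genes in that fit.

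Among proteases at 48 h, Ctsl went from 133 and 154 CPM with EtOH to 229 and 281 CPM with 4OHT (0.83 ± 0.15; adjusted p = 0.00508), and Ctsh from 923 and 1241 to 1475 and 1754 CPM (0.58 ± 0.17; adjusted p = 0.0335), or 0.37 without EtOH replicate 1. Ctsd, the main aspartic protease of the lysosome, went from 521 and 562 to 348 and 376 CPM (-0.58 ± 0.12; adjusted p = 0.00802), and Ctsa from 261 and 250.3 to 176 and 187 CPM (-0.50 ± 0.12). In all 4 genes the EtOH and 4OHT libraries did not overlap. Ctss was near the floor, with 15 and 9 counts under EtOH and 0 and 1 under 4OHT, a ratio of 0.0407 with an exact 95% counting interval of 0.000989 to 0.249; it is 1 of the 9 lower calls and passed the count filter through its EtOH libraries. With at least 10 counts required in every library, 17 of 40 members were called, 10 higher and 7 lower.

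Of the glycan genes at 48 h in vehicle, Sgsh went from 7.66 and 8.48 to 15.3 and 15.1 CPM (0.91 ± 0.16; adjusted p = 0.00457) and Hexa from 42.5 and 41.1 to 60.2 and 69.7 CPM (0.64 ± 0.13). Neu1 fell from 154 and 124 to 77.4 and 79.3 CPM (-0.83 ± 0.14; adjusted p = 0.00392) and Glb1 by 0.59, or 0.37 without EtOH replicate 1. Ctsa, Neu1 and Glb1, whose products form 1 complex in the lysosome, all fell. Of the remaining groups, Psap rose from 283 and 242 to 407 and 474 CPM (0.75 ± 0.14; adjusted p = 0.00635), Cln3 and Grn rose by 0.59 and 0.48, and Scarb2 fell from 295 and 246 to 168 and 176 CPM (-0.65 ± 0.13; adjusted p = 0.00806). Atg16l2 rose by 0.82 from a low level and Atg9b fell from 105 and 89.5 to 53.1 and 64.4 CPM (-0.73 ± 0.16). Tfe3 fell from 63.6 and 50.4 to 37.4 and 35.5 CPM (-0.65 ± 0.18; adjusted p = 0.0305), while Tfeb was 11.7 and 14.1 CPM with EtOH and 12.9 and 11.7 CPM with 4OHT.

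Between the 2-week and the 48-h vehicle comparison, Ctsh rose and Scarb2 fell in both, out of 40 members tested in both; of 13675 genes tested in both, 6.76% were called in the same direction. These are 1 of 1 risen and 1 of 3 fallen members at 2 weeks, and 1 of 9 risen and 1 of 9 fallen at 48 h. Lipa, which fell at 2 weeks, was 59.7 and 48.7 CPM with EtOH and 65.3 and 71.5 CPM with 4OHT at 48 h (0.34 ± 0.16; adjusted p = 0.139), with the 4OHT libraries the higher ones. The difference between the experiments was not tested.

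MRTX1133 at 3 nM for 48 h called 0 of 41 members in 3154 organoids with intact Hnf4a (0.349% of all genes were called). The members' median was -0.02, 6 of 41 members had an unadjusted p under 0.05, as had 11.8% of all genes, and DESeq2 called 1 (2.42% of all genes). Atg9b had the largest value among them, at 105 and 89.5 CPM in vehicle and 59.1 and 52.7 CPM with MRTX1133 (-0.80 ± 0.16; adjusted p = 0.104). Tfeb was 13.6 and 13.4 CPM with MRTX1133 (0.06 ± 0.15) and Tfe3 53.0 and 39.4 CPM (-0.30 ± 0.18). The 10 ERK target genes had a median of -0.39 in these organoids, 4 with an unadjusted p under 0.05 and none called by edgeR; Dusp6 was at -0.09.

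With 4OHT, MRTX1133 raised 5 of 41 members and lowered none (12.2%, against 4.64% of all genes in either direction and 2.1% higher), and 38 of the 41 had a positive log2 fold change, with a median of 0.30. Lipa went from 65.3 and 71.5 CPM in vehicle to 117 and 136 CPM with MRTX1133 (0.89 ± 0.16; adjusted p = 0.0263), and Hexa from 60.2 and 69.7 to 126 and 113 CPM (0.88 ± 0.13; adjusted p = 0.0192). Cln3, Grn and Ctsa rose by 0.74, 0.65 and 0.62. In all 5 genes both MRTX1133 libraries lay above both vehicle libraries. Leaving out any 1 of these 4 libraries left 0 members called, while a fit of these 2 groups alone called 22 of 40, against 26.5% of all genes in that fit. Tfeb was 14.8 and 14.7 CPM with MRTX1133 (0.26 ± 0.15) and Tfe3 36.2 and 33.3 CPM (-0.07 ± 0.18), neither called against vehicle. The ERK target genes had a median of -0.56 here, and 3 of 10 fell.

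In MRTX1133, 4OHT raised 14 of 41 members and lowered none (34.1%, against 27.7% of all genes in either direction and 13.2% higher), with a median of 0.22. The largest rises were those of Ctsl, from 146 and 157 to 378 and 337 CPM (1.24 ± 0.15; adjusted p = 0.00109), and Hexa, from 53.6 and 55.0 to 126 and 113 CPM (1.13 ± 0.13; adjusted p = 9.66e-04). Lipa went from 64.9 and 55.9 to 117 and 136 CPM (1.07 ± 0.16) and Psap from 313 and 271 to 565 and 584 CPM (0.98 ± 0.14). Cln3, Grn, Atg16l2, Ctsh, Mcoln1, Tpp1, Lamp1, Map1lc3a, Sgsh and Map1lc3b rose by 0.41 to 0.96. Neu1, Ctsd and Scarb2, which fell with 4OHT in vehicle, had values of -0.30, -0.04 and -0.31 here and were not called. Leaving out EtOH replicate 1 or 4OHT replicate 2 left 9 members called, and leaving out 4OHT replicate 1 left 7. Tfeb (0.13 ± 0.15) and Tfe3 (-0.41 ± 0.18) were not called either.

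The interaction, the MRTX1133 change with 4OHT minus that with EtOH, was above 0 for 38 of 41 members with a median of 0.34, and was called for none in edgeR's fit (0% of all genes were called; 14 members and 7.44% of all genes had an unadjusted p under 0.05, and DESeq2 called 0 members). Apart from Ctss, with 0 to 15 counts per library, the values of Lipa (0.73 ± 0.22; adjusted p = 0.572), Ctsa (0.69 ± 0.16; adjusted p = 0.541) and Atg9b (0.68 ± 0.23) were among the largest. The response to MRTX1133 was thus not shown to differ between 4OHT and EtOH, although 5 members were called in the one and 0 in the other. The 5 listed macrophage markers summed to 59.1 to 101 CPM over the 8 libraries of this table, with Ptprc under 1 CPM in each. Among them Mrc1 fell with 4OHT in vehicle (-1.18), with 4OHT in MRTX1133 (-2.27) and with MRTX1133 after 4OHT (-1.43), and Cd14 rose with 4OHT in MRTX1133 (0.66); their part in the members' changes was not tested.

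**Figure D5:**
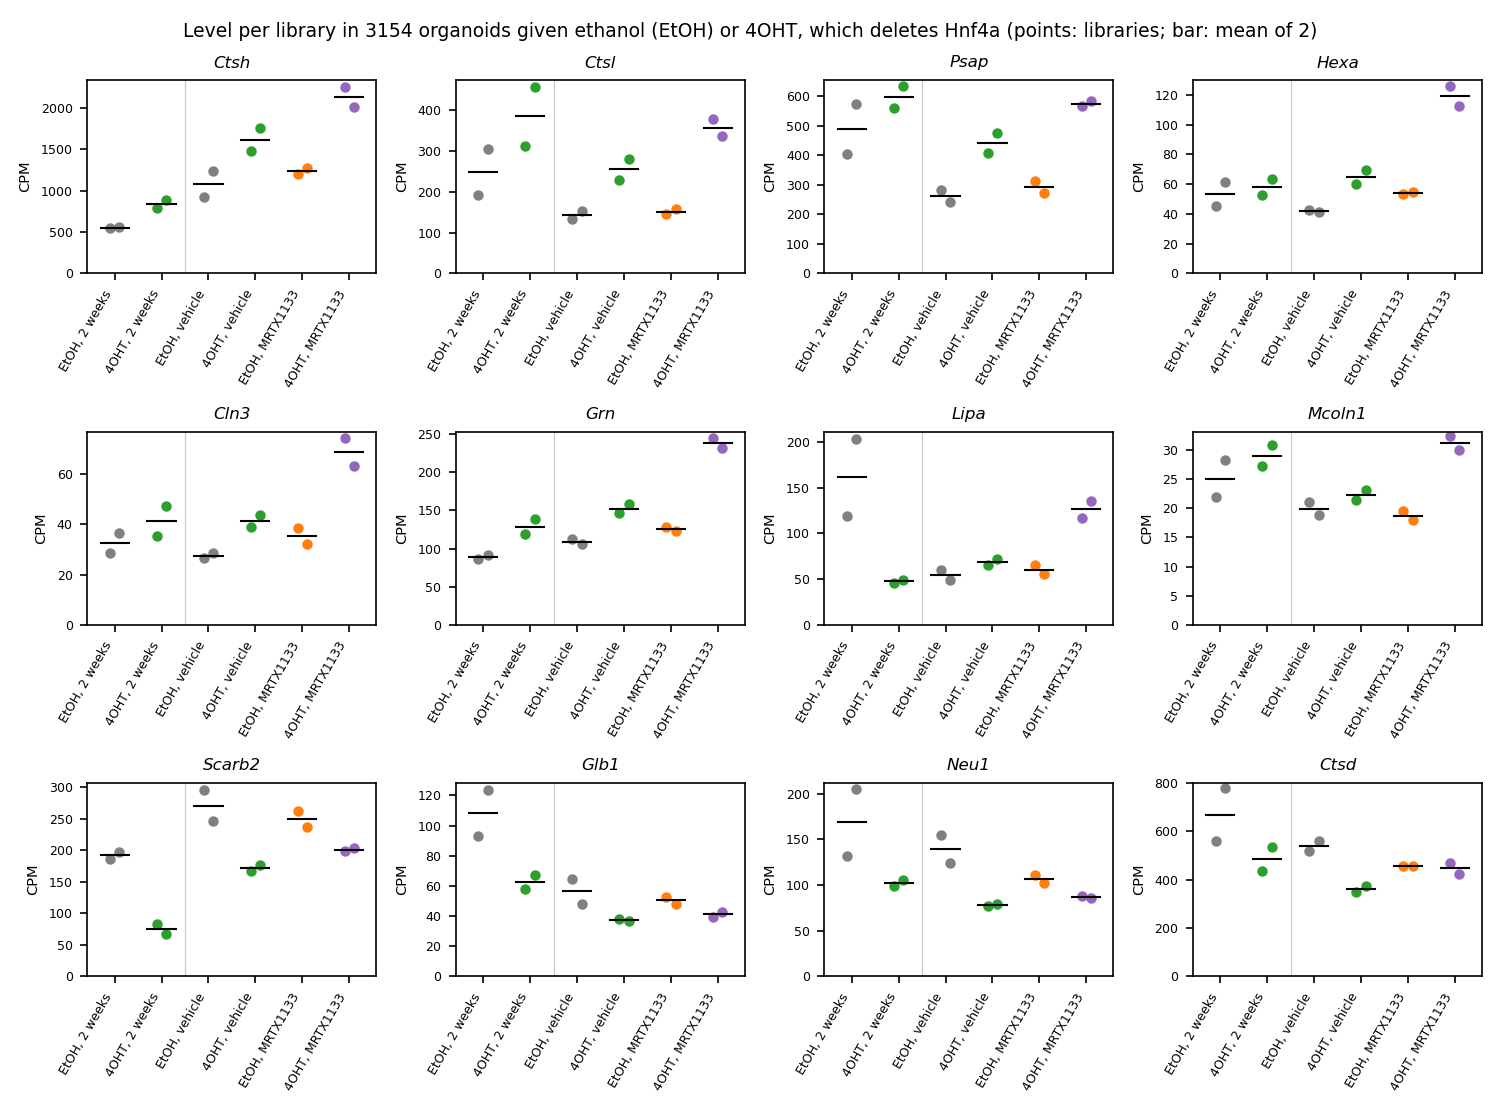
Points are the CPM of single 3154 libraries (linear axis from 0) and bars the mean of 2, for 12 members in EtOH (grey) and 4OHT (green) organoids at 2 weeks and in vehicle at 48 h, and with MRTX1133 in EtOH (orange) and 4OHT (purple) organoids. Ctsh is higher with 4OHT in both experiments, Scarb2 lower, and Lipa is lower with 4OHT at 2 weeks (46.2 and 49.3 CPM against 119 and 204 CPM) and highest with 4OHT and MRTX1133 at 48 h (117 and 136 CPM).

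Induction of HNF4A in H1651 by doxycycline called 1 of 43 members, LIPA, which rose (2.33%, against 1.42% of 17351 genes). LIPA went from 127 and 117 CPM without to 188 and 198 CPM with doxycycline (0.67 ± 0.08; adjusted p = 0.0122), while Lipa fell with 4OHT in 3154 organoids at 2 weeks (-1.76), was not called with 4OHT at 48 h in vehicle (0.34) and rose with 4OHT at 48 h in MRTX1133 (1.07). The members' median was -0.04, and 6 of 43 members had an unadjusted p under 0.05, as had 12.7% of all genes. SGSH, with the next lowest p, was at 34.9 and 31.7 CPM without and 41.9 and 41.5 CPM with doxycycline (0.33 ± 0.09; adjusted p = 0.153) and was not called. TFEB (-0.07 ± 0.24), TFE3 (-0.03 ± 0.08) and MITF (-0.22 ± 0.08) were not called. SCARB2, CTSF and CTSH, called in 3154 organoids at 2 weeks, had values of -0.09, -0.29 and 0.02. In the same libraries the 7 fibroblast markers summed to 663 and 757 CPM without and 413 and 455 CPM with doxycycline, and the 6 epithelial markers to 4468 and 4466 CPM without and 5780 and 6263 CPM with it, with KRT8 and KRT18 called higher. The part of such shifts in these values was not tested.

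Npc1, which exports cholesterol from lysosomes, and Uvrag, a partner of the Vps34 lipid kinase complex, were called in no comparison, with values from -0.41 to 0.47 and from -0.38 to 0.51 over the 14 comparisons. Called in 1 comparison each were Atp6v1h and Gabarapl2 (trametinib in 3311), Ctsb (4OHT in vehicle) and CTSZ, NAGLU and MITF (trametinib in H358).

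Among members compared per exon length, levels differed by culture in vehicle or EtOH. Npc2, Lamp1 and Ctsh led in 1027B (RPKM of 302, 237 and 219), Psap, Sqstm1 and Ctsz in 3311 (282, 197 and 183), and Ctsz, Ctsd and Psap in 3154 organoids at 2 weeks (301, 285 and 178). Lengths are those of all annotated exons of a gene (GRCm38), so genes with rarely used exons are understated. For some members exons overlap another gene: 34.4% of the exon bases of Ctsd lie in another gene on its strand, and 28.3% for Gabarapl1, 26.9% for Ctsl, 21.6% for Sgsh and 17.4% for Ctsa face a gene on the opposite strand. Whether reads were counted by strand is not given in the sources used here, so reads of these genes and of their neighbours cannot be told apart.

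Other genes of the lysosome and of autophagy, listed by name, were called with trametinib in 3311, 1027B and H358. Shares of all genes called in either direction were 46.8% in H358, 39% in 3311 and 26.7% in 1027B. Of 30 further hydrolase genes, 22 rose and 1 fell in H358 (76.7%), 9 rose and 3 fell in 3311 (40%, near the share of all genes), and 11 rose and 2 fell in 1027B (43.3%). SMPD1, acid sphingomyelinase, went from 10.1 to 44.7 CPM and ASAH1, acid ceramidase, from 84.9 to 278 CPM in H358 (group means; log2 fold changes 2.14 and 1.71), and the protease gene Lgmn from 88.4 to 222 CPM in 1027B (1.33). Ctsc, an aminopeptidase that activates serine proteases, fell in 3311 from 219 to 55.5 CPM (-1.98). Of 22 further lysosomal membrane and sorting genes, 12 rose and none fell in H358 (54.5%), 14 rose and 1 fell in 3311 (68.2%), and 9 rose and none fell in 1027B (40.9%), with Slc36a1, an amino acid exporter of the lysosome, at 1.57 and Clcn7, a chloride exchanger, at 1.48 in 3311.

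Of the other pump genes, 6 of 16 rose in H358 (37.5%), 4 of 15 in 3311 (26.7%) and 2 of 15 in 1027B (13.3%), and none fell there, against 23.5%, 19.4% and 13.5% of all genes that rose in these cultures. Atp6v0a2 rose in 3311 from 26.3 to 105 CPM (2.00). Of 34 further autophagy genes, 15 rose and 4 fell in H358 (55.9%), 6 rose and 3 fell in 3311 (26.5%, below the share of all genes), and 8 rose and 2 fell in 1027B (29.4%, near it). Atg7, an enzyme of LC3 conjugation, rose in 1027B from 29.8 to 83.6 CPM (1.49), OPTN, a cargo receptor, rose in H358 by 1.58 and BNIP3, a mitophagy receptor, fell there by 0.85. Of the genes that control TFEB or belong to mTORC1 and its lysosomal docking, 10 of 19 rose and 4 fell in H358 (73.7%), and 4 of 20 rose in 3311 (20%, against 19.4% of all genes) and 3 of 17 in 1027B (17.6%, against 13.5%), with none lower in either. Ppargc1a, a coactivator gene and known TFEB target, rose in 3311 from 4.98 to 82.8 CPM (4.06), and PPARGC1A rose in H358 from 3.20 to 15.5 CPM (2.27). RRAGC, a Rag GTPase, rose in H358 by 1.16 and Flcn, the folliculin gene, in 1027B by 0.89.

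In 3154 organoids at 48 h in vehicle the same lists went both ways with 4OHT, where 31% of all genes were called. Of 30 hydrolase genes 6 were higher and 6 lower (40%), and of 22 membrane and sorting genes 5 and 2 (31.8%). Of 34 autophagy genes 4 were higher and 4 lower (23.5%), and of 15 other pump genes 3 and 1 (26.7%). Of 16 genes of TFEB control and mTORC1, 1 was higher and 1 lower (12.5%). Bnip3 fell from 1349 to 420 CPM (-1.68) and Ulk2, the paralogue of Ulk1, rose by 1.34. In MRTX1133, 12 hydrolase genes were higher and 1 lower with 4OHT (43.3%), and 8 membrane and sorting genes higher and 1 lower (40.9%). Of the autophagy genes 4 were higher and 2 lower (17.6%), and of the other pump genes 5 and 0 (33.3%). None of 16 genes of TFEB control and mTORC1 was called, against 27.7% of all genes. At 2 weeks Bnip3 fell from 763 to 333 CPM (-1.20).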

How the data were processed

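The values are raw counts per gene, whole numbers that the authors deposited in 7 tables, 1 per experiment. Cutadapt 3.5, STAR 2.7.6a and featureCounts 1.6.3 are named in the submitters' processing notes, with the builds mm10, mm39 and hg38 but not which table used which. Libraries were poly(A)-selected with a directional kit, per the labels' protocols; whether reads were counted by strand is not given in the sources used here. Columns were matched to samples by their names. One further allele of the mouse cultures is not reported here. A separate edgeR 4.0.16 model (run under R 4.3.3) was made for every table (filterByExpr, TMM scaling, quasi-likelihood F-test, 1 mean per group), and p-values were adjusted by Benjamini-Hochberg over all genes tested. The H358 and H1651 trametinib tables, which list the same genes, were joined for the difference of responses. DESeq2 1.42.0, other scalings and count filters, a fold limit, leaving out each library and a replicate block were alternatives. Each group has 2 libraries, which limits the precision, and counting intervals cover counting error only.

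The members and the other gene lists were chosen with earlier results of these data known. Values per library are given, in each comparison, for called members with the largest absolute fold change of each role (up to 3 each way) and for Tfeb, Tfe3 and Mitf. Of the other lists up to 2 called genes each way with at least 10 CPM were named. Members named for a shared response, a level without a call or a low count were chosen after their values were seen. Replicate numbers come from the labels. In 1027B the deviations of same-numbered libraries from their group means correlated in all 3 pairs of groups (0.24, 0.37 and 0.41 over 14555 genes), so blocked counts are given beside those results. In the 48-h 3154 table the correlations ran from -0.25 to 0.55, and the numbers were not taken as pairs.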

Additional observations from a re-analysis of the deposited data

Results flagged for a closer look

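The trametinib response of 24 members differed between H1651 and H358 in the test of the difference itself (edgeR's quasi-likelihood test, Benjamini-Hochberg adjusted over 21188 genes). The differences, as the log2 fold change in H1651 minus that in H358, were -2.36 for CTSS, -1.94 for CTSH, -1.85 for PSAP, -1.65 for WIPI1, -1.60 for GABARAPL1, -1.46 for GRN, -1.32 for CTSA, -1.12 for NEU1, -1.01 for TPP1, -0.98 for CTSF, -0.95 for SCARB2, -0.90 for MAN2B1, -0.85 for GAA, -0.85 for HEXA, -0.79 for LAMP1, -0.78 for SQSTM1, -0.73 for SGSH, -0.71 for LAMP2, -0.70 for CTSD, -0.64 for ATP6V0D1 and -0.59 for GLB1. They were 1.37 for GLA, 1.35 for NPC2 and 1.00 for GUSB. The adjusted p-values ran from 0.000279 (PSAP) to 0.0426 (CTSD).

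For 5 members both libraries moved one way with trametinib in 3311 and the opposite way in 1027B, at different doses: Ctsh (0.82 and -0.16), Gabarapl1 (-0.19 and 0.40), Psap (-0.19 and 0.41), Scarb2 (-0.27 and 1.15) and Sgsh (1.92 and -0.60). These differences were not tested; 5 of 41 members is 12.2%, and 11.2% of 13396 genes tested in both moved in this way. With 4OHT in 3154 organoids, at 2 weeks and at 48 h in vehicle, the same held for Lipa (-1.76 and 0.34), Map1lc3b (0.13 and -0.12) and Naglu (-0.13 and 0.12), not tested (7.5% of members and 4.72% of all genes). With MRTX1133, it held for Sgsh between 1027B at 20 nM (-0.74) and 3154 organoids with intact Hnf4a at 3 nM (0.41), not tested (2.5% of members and 1.94% of all genes).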

How the results depend on the processing

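No member named with a call changed direction under any alternative run. Some called members lost their call without 1 library, in fits that leave 1 library in a group.

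With 1 library left out, the members called ran from 1 to 9 for 4OHT at 2 weeks, 7 to 17 for trametinib in 1027B, 0 to 1 for MRTX1133 in 1027B and in 3154 organoids with intact Hnf4a, 0 to 0 for MRTX1133 with 4OHT, 4 to 19 for 4OHT in vehicle and 7 to 11 for 4OHT in MRTX1133. The members' medians ran from -0.12 to 0.036 for doxycycline, -0.14 to -0.057 for 4OHT at 2 weeks, 0.31 to 0.45 for trametinib in 1027B, 0.018 to 0.15 for MRTX1133 in 1027B, -0.35 to -0.25 for MRTX1133 against trametinib, 0.0013 to 0.042 for MRTX1133 with intact Hnf4a, 0.28 to 0.35 for MRTX1133 with 4OHT, -0.080 to 0.000943 for 4OHT in vehicle, 0.23 to 0.34 for 4OHT in MRTX1133 and -0.82 to -0.64 for the difference between H1651 and H358.

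With a limit of 1 on the absolute log2 fold change, the members called were 8 for trametinib in 3311, 7 in 1027B, 13 in H358, 12 for the difference between H1651 and H358, 3 for 4OHT in MRTX1133, 1 for 4OHT in vehicle and 0 for doxycycline, for MRTX1133 in 1027B and for MRTX1133 with 4OHT. DESeq2 called 7 for 4OHT at 2 weeks, 6 for MRTX1133 in 1027B, 9 for MRTX1133 against trametinib, 1 for MRTX1133 with intact Hnf4a and 10 with 4OHT. Without a count filter MRTX1133 in 1027B called 2. A fit of only the groups compared called 22 for MRTX1133 with 4OHT and 9 for 4OHT in vehicle. Upper-quartile scaling gave medians of 0.015 for 4OHT at 2 weeks (all genes moved by 0.11), 0.15 for MRTX1133 in 1027B, 0.35 for MRTX1133 with 4OHT, 0.071 for 4OHT in vehicle and 0.31 for 4OHT in MRTX1133, and at least 10 counts in every library gave 0.32 for the last. The cause of these shifts was not tested.

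With the replicate block, the members called were 30, 14 and 18 in the 3 comparisons of 1027B, 11 for 4OHT at 2 weeks (26.8%, against 31.5% of all genes in the same fit), 9 for doxycycline (20.9%, against 17.6%) and 5 for trametinib in H1651 (11.6%, against 10.3%). The deviations of same-numbered libraries correlated by 0.43 at 2 weeks, 0.32 with doxycycline, 0.13 in 3311, 0.32 in H358 and 0.62 in H1651, with 1 pair of groups each, so what same-numbered libraries share cannot be told from these values.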
